A study of Mus musculus with 6 samples.

Results

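The genes described here are the Slit ligands Slit1, Slit2 and Slit3, the Robo receptors Robo1, Robo2, Robo3 and Robo4, and the srGAP proteins Srgap1, Srgap2 and Srgap3, which bind the inner side of Robo receptors. They are 10 of the 24380 genes named on the array, and all 15 array probes carrying one of their symbols were used, of 55681 probes in all. The genes were chosen with the difference between the populations known, so their values are given as a description and no p value is printed for them. Where a probe of these genes is said to be counted, or to pass an unadjusted p under 0.05, this describes the fit and is no test of the gene.

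The samples were epithelial cells from prostates of 6-day-old male mice, a stage at which solid epithelial cords grow into the mesenchyme. All mice were FVB/N and carried the transgene Tg 11.5kb-GFP, in which the s-SHIP promoter drives GFP. This promoter is also active in vascular smooth muscle cells of these mice, which the study describes as having little or no Sca-1 and CD49f, and stromal cells lack CD49f, so the sort was set to leave both out. Dissociated cells that lacked the lineage markers CD31, CD45 and Ter119, of endothelial and blood cells, and carried Sca-1 and CD49f (LSC cells) were sorted by GFP into LSC GFP+ and LSC GFP- populations, with no treatment. The question of the comparison was how the expression profile of the GFP+ subset differs from that of the remaining basal cells. There were 3 arrays for each population, each from an independent sample of amplified RNA. How many animals went into a sample is not given in the sources used here, and no GFP-negative strain was on the arrays, so every sample shared the transgene.

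Slits are large secreted proteins that bind the immunoglobulin domains of Robo receptors together with heparan sulfate. Signaling from the receptor reaches the actin cytoskeleton through srGAPs, which switch off small GTPases, and through adaptors such as Nck and the Abl kinases. The pathway is best known for repelling growing axons at the midline, and it also acts in vessels and in branching epithelia, including the mammary gland. Robo3 is a divergent receptor of commissural neurons, and Robo4 is an endothelial receptor.

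The probes were 60 bases long. Stretches that read the genes with the largest differences are shown first, because every value below is the signal of such a stretch and not of a whole transcript. For probes that may lie in untranslated sequence the opening 30 bases are given. Capitals mark a closing triplet that reads as a stop codon, and read in the frame that ends there this Srgap3 stretch holds 0 earlier stop codons. Whether that triplet ends the Srgap3 protein was not checked.
Robo1, A_55_P1985070: cagttctaagggaacaatccacgtgattaa
Robo2, A_55_P2083919: caaatctgtttgacccattttgaatgagta
Slit2, A_55_P1958394: gggagggtgggagaagaaagactgttatgt
Srgap3, A_51_P469951: ctcgttccaggcagtgtgactgtttacatg
Srgap3, A_55_P2108609: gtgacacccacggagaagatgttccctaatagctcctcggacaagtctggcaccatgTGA

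In the mouse build mm9 used by the array design, the Robo1 probe lies at chr16:73046190-73046249 on the plus strand. The first Robo2 probe lies on the minus strand of the same chromosome, at chr16:73894653-73894712. The Slit2 probe lies at chr5:48696673-48696732 on the plus strand. The Srgap3 probes lie on the minus strand at chr6:112668239-112668298 and chr6:112672782-112672841. No annotation of that build was used, so exons and untranslated regions are not named. Of the 15 probes, 14 shared no stretch of 16 bases with a probe of another gene on either strand, and the Slit1 probe shared one with 2 such probes.

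Robo1 and Robo2 had a higher signal in LSC GFP+ cells and Slit2 and Srgap3 a lower one, whereas Slit1, Slit3, Robo3, Srgap1, the second Srgap2 probe and the third Srgap3 probe overlapped between the populations. The first Srgap2 probe was also higher without overlap, by 0.24 log2 units, and Robo4 was not tested. Signals are on a log2 scale on which 0 is the 75th percentile of the array, and differences are LSC GFP+ minus LSC GFP-, with the standard error (SE) from limma and n = 3 per population. To be tested, a probe had to read well above background throughout one population or the other (3 arrays), which held for 14 of the 15 probes, from 9 genes. Levels of different probes are not comparable, since each stretch hybridizes with its own efficiency. RNA came from pools of cells, in which fewer cells of a type and less RNA per cell cannot be told apart.

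**Figure D1:**
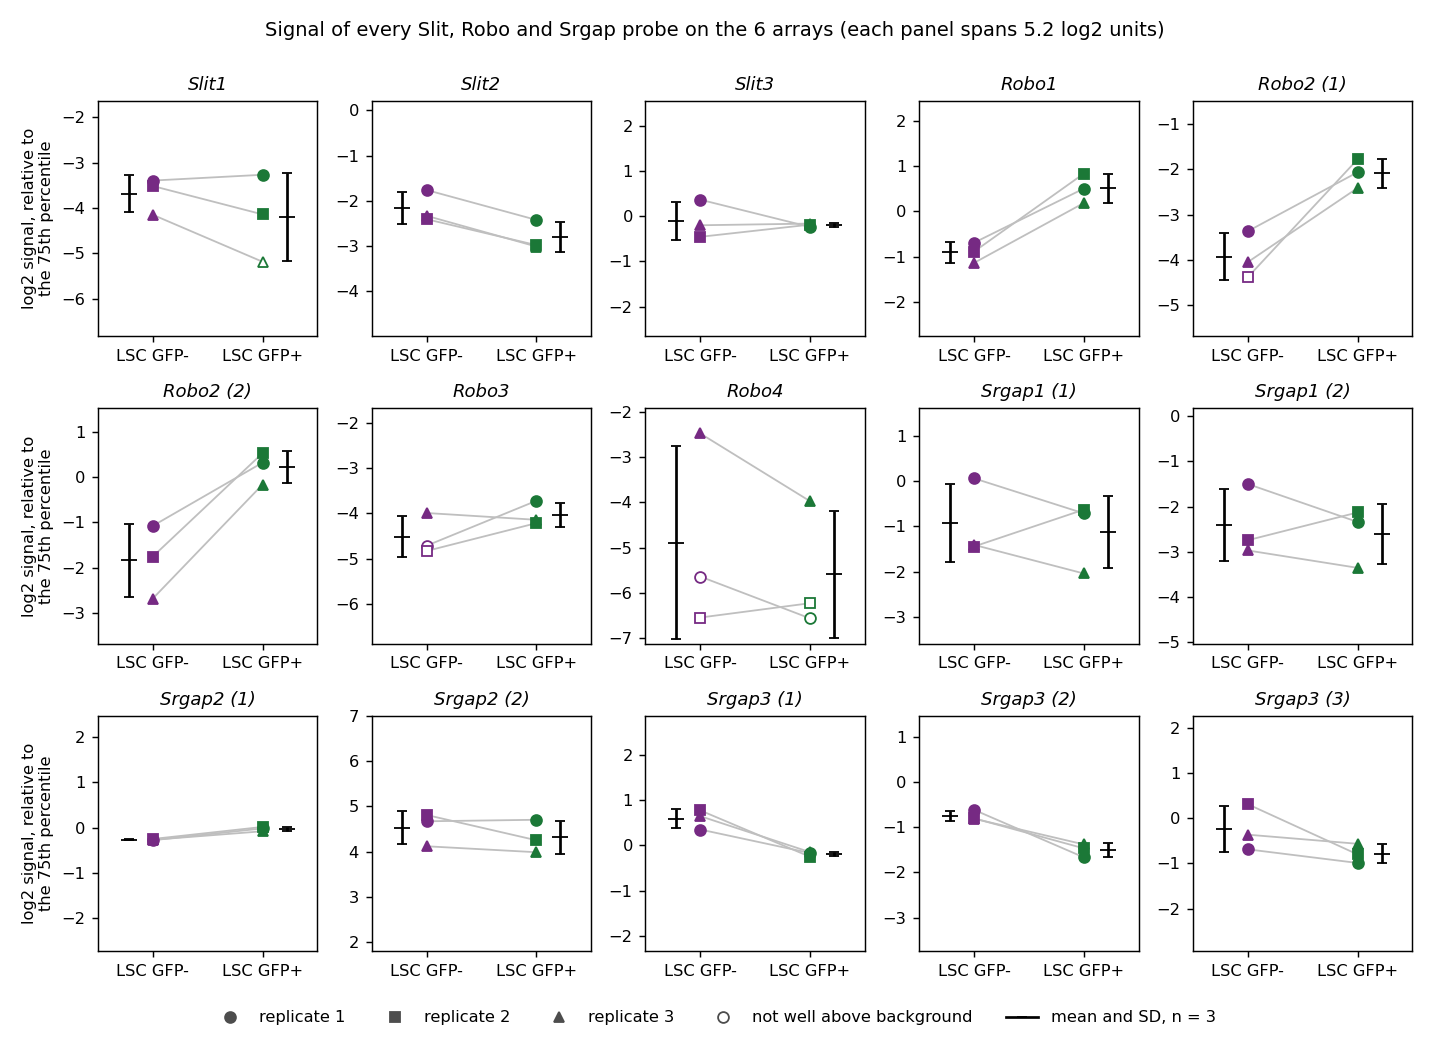
Log2 signal relative to the 75th percentile of the array (y axis) of the 15 probes in LSC GFP- (purple) and LSC GFP+ (green) cells; each symbol is an array, gray lines join arrays of the same replicate number, open symbols are not well above background, and black bars are the mean and SD of 3 arrays. The Robo1 and Robo2 panels rise from LSC GFP- to LSC GFP+ on every line, and all 3 Srgap3 panels fall.

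Robo2, the receptor with the largest difference, was read by a pair of probes. At its second probe the LSC GFP+ arrays, replicates 1 to 3, gave log2 signals of 0.32, 0.53 and -0.17, and the LSC GFP- arrays gave -1.08, -1.76 and -2.69. All LSC GFP+ arrays lay above all LSC GFP- arrays, and the populations differed by 2.07 on the log2 scale (SE 0.40), or 4.19-fold. Within replicate numbers the difference was 1.40, 2.28 and 2.52.

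The other Robo2 probe gave log2 signals of -2.07, -1.78 and -2.41 in LSC GFP+ cells and -3.37, -4.38 and -4.05 in LSC GFP- cells. It was well above background on all arrays except that of LSC GFP- replicate 2. The groups again did not overlap, with a difference of 1.85 (SE 0.30). With normexp background correction this difference was 0.54 and that of the second probe 1.41, so the size of both depended on the background correction. Leaving out any single array gave between 1.62 and 2.13 at the first probe and between 1.64 and 2.45 at the second.

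Robo1, a Slit receptor of neurons and of many epithelia, gave log2 signals of 0.50, 0.83 and 0.18 in LSC GFP+ cells and -0.69, -0.89 and -1.14 in LSC GFP- cells. The mean was 0.51 ± 0.32 (SD, n = 3) against -0.91 ± 0.22, a difference of 1.41 (SE 0.24) or 2.67-fold. Every LSC GFP+ value exceeded every LSC GFP- value, and the differences within replicate numbers, 1.20, 1.72 and 1.32, varied less than those of Robo2. With normexp correction the difference was 1.19, and it lay between 1.25 and 1.58 when any single array was left out.

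Robo1 and Robo2 are next to each other among the protein-coding genes of chromosome 16 in RefSeq's table of GRCm38.p6, used for names and order. The gene on the far side of Robo1, Gbe1, which encodes the glycogen branching enzyme, differed by 0.08 (SE 0.34) with overlapping populations. Lipi, a lipase gene on the far side of Robo2, had no array well above background.

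Robo3, the divergent receptor, was dim. Its log2 signals were -3.73, -4.22 and -4.14 in LSC GFP+ cells and -4.72, -4.83 and -3.99 in LSC GFP- cells, where it was well above background on replicate 3 alone. The populations overlapped, and the difference was 0.49 (SE 0.28). It stood at 0.75 without LSC GFP- replicate 3, the setting among those run that would have counted it as higher, and at 0.16 with normexp correction.

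Robo4, the endothelial receptor, was well above background on the replicate 3 array of each population and on no other array, and was therefore not tested. Its log2 signals were -6.56, -6.23 and -3.97 in LSC GFP+ cells and -5.64, -6.54 and -2.48 in LSC GFP- cells. The highest value was that of LSC GFP- replicate 3. On that array the endothelial markers Cdh5 and Tie1 were at -2.24 and -2.47, while on the other 5 arrays, LSC GFP+ replicate 3 included, neither was well above background. Of the other listed endothelial markers, Pecam1, Emcn, Esam and Egfl7 were also highest on that array. Kdr and Tek were not, with their highest values on LSC GFP+ replicates 1 and 3. The summed linear signal of the 8 endothelial markers was 6.71 to 7.30 times the 75th percentile of the array in LSC GFP+ cells and 6.72 to 8.65 in LSC GFP- cells. These sums mostly follow the brightest marker, Kdr, which differed by 0.02 (SE 0.18), so they say little of the other markers. The part of endothelial cells, which the CD31 gate was set to remove, in the Robo4 signal was not tested.

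**Figure D2:**
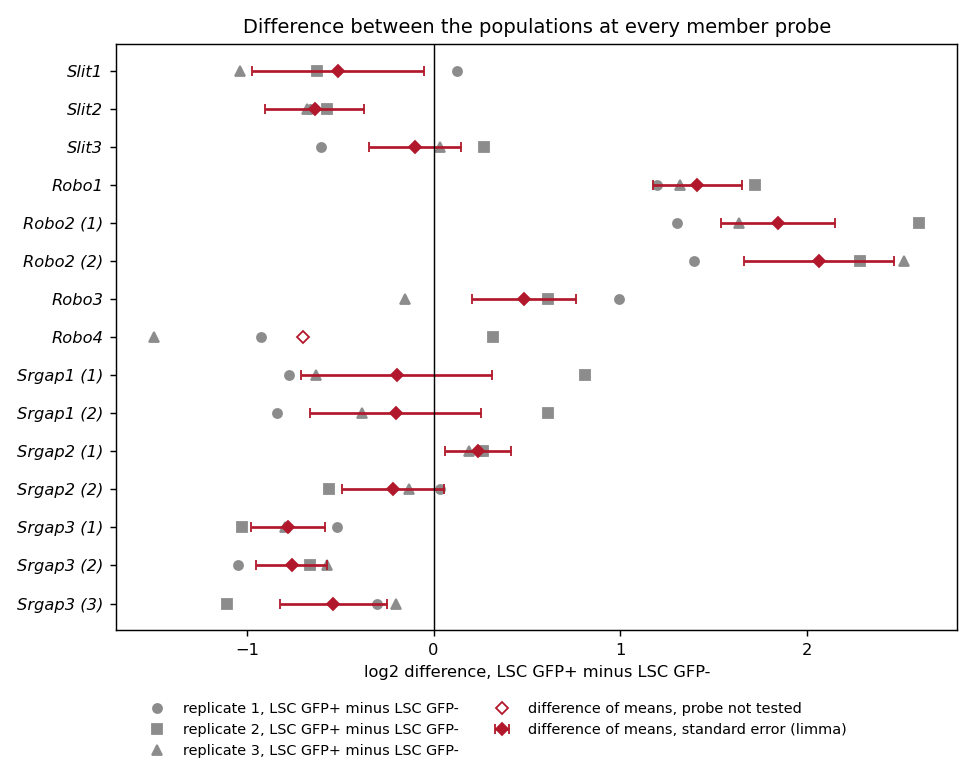
Log2 difference between LSC GFP+ and LSC GFP- cells (x axis) at every probe: red diamonds are differences of means with the standard error from limma, the open diamond is the untested Robo4 probe, and gray symbols are the differences within replicates 1, 2 and 3. The Robo1 and Robo2 symbols all lie to the right of 0 and those of Slit2 and the 3 Srgap3 probes to the left, while Slit1, Slit3, Robo3, Robo4 and Srgap1 have symbols on both sides.

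Among the ligands, Slit2, which binds Robo1 and Robo2, was lower in LSC GFP+ cells by a narrow margin. Its log2 signals were -2.42, -2.98 and -3.01 in LSC GFP+ cells and -1.76, -2.41 and -2.33 in LSC GFP- cells. The highest LSC GFP+ value fell just under the lowest LSC GFP- value, and the difference was -0.64 (SE 0.26). Within replicate numbers it was -0.66, -0.57 and -0.68, a narrower spread than that of the arrays within a population. Slit2 was no longer counted as differing when LSC GFP+ replicate 2 or 3 was left out, with differences of -0.55 and -0.53, nor without LSC GFP- replicate 1, with -0.435, nor with normexp correction, where it was -0.34. The same held, with the difference unaltered, without a filter on dim probes, with the methods' t-test and with an intensity trend in limma.

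Slit3 overlapped between the populations. Its log2 signals were -0.24, -0.19 and -0.16 in LSC GFP+ cells, 3 nearly equal values, and 0.36, -0.46 and -0.20 in LSC GFP- cells. The difference was -0.10 (SE 0.25), and it turned to 0.13 without LSC GFP- replicate 1. The probe lies at chr11:35521559-35521618.

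Slit1, mainly a neuronal ligand, gave log2 signals of -3.27, -4.14 and -5.19 in LSC GFP+ cells, the last not well above background, and -3.39, -3.51 and -4.15 in LSC GFP- cells. The populations overlapped, with a difference of -0.51 (SE 0.46). Without LSC GFP+ replicate 3 it was -0.02 and without LSC GFP+ replicate 1 -0.98, the latter counted as lower, so the estimate moved with single arrays. The probe lies at chr19:41674749-41674808.

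Of the srGAPs, Srgap3, which switches off Rac, was lower in LSC GFP+ cells at each of its 3 probes. The first probe gave log2 signals of -0.17, -0.25 and -0.15 in LSC GFP+ cells and 0.35, 0.77 and 0.65 in LSC GFP- cells. The populations did not overlap, and the difference was -0.78 (SE 0.20), with -0.52, -1.02 and -0.79 within replicate numbers.

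At the second probe, which ends in the capitals shown above, the signals were -1.67, -1.47 and -1.38 in LSC GFP+ cells and -0.62, -0.81 and -0.81 in LSC GFP- cells. The groups were again apart, by -0.76 (SE 0.19). With normexp correction this became -0.50, and leaving out any single array gave between -0.82 and -0.68.

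The third Srgap3 probe, at chr6:112669336-112669395, gave -0.99, -0.80 and -0.57 in LSC GFP+ cells and -0.69, 0.31 and -0.36 in LSC GFP- cells. Here the populations overlapped, although the value was lower in LSC GFP+ cells within all 3 replicate numbers. The difference was -0.54 (SE 0.29), and it was -0.76 without LSC GFP- replicate 1, which would have counted it as lower, and -0.26 without LSC GFP- replicate 2.

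Srgap1, a GTPase-activating protein for Cdc42 downstream of Slit and Robo, overlapped at both of its probes. The first, at chr10:121222298-121222357, gave -0.71, -0.63 and -2.04 in LSC GFP+ cells and 0.06, -1.44 and -1.41 in LSC GFP- cells, a difference of -0.20 (SE 0.51). The second, at chr10:121222369-121222428, gave -2.34, -2.13 and -3.35 against -1.50, -2.74 and -2.97, also a difference of -0.20 (SE 0.46). Both probes were highest on LSC GFP- replicate 1 and lowest on LSC GFP+ replicate 3. Without the former the differences were 0.30 and 0.25, and without the latter 0.26 and 0.17, so no direction can be given for Srgap1.

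Srgap2, known for shaping neuronal migration and spine maturation, had a pair of probes that moved apart. The first, at chr1:133195006-133195065, gave -0.02, 0.02 and -0.08 in LSC GFP+ cells and -0.28, -0.25 and -0.27 in LSC GFP- cells. The arrays agreed closely within each population and the groups did not overlap, but the difference of 0.24 (SE 0.18) was not counted by limma, whereas the methods' t-test counted it as higher. The second, at chr1:133181856-133181915, gave 4.71, 4.25 and 3.99 in LSC GFP+ cells and 4.67, 4.81 and 4.12 in LSC GFP- cells. These overlapped, with a difference of -0.22 (SE 0.27), and no direction is given for the gene.

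The study's p threshold, an unadjusted p under 0.05, was applied here to limma, without the fold cut of the study's gene lists. In limma, 6 of the 14 tested probes passed this threshold. Of these, 3 went upward in LSC GFP+ cells (Robo1 and both Robo2 probes) and 3 downward (Slit2 and the first and second Srgap3 probes). Over all 37005 probes tested, 7.9% passed the threshold, 3.38% upward and 4.53% downward. After adjustment 0 of the 14 probes passed 0.05, with 0.0027% of all probes. The populations did not overlap at 4 of the 14 probes in the higher direction, where all probes gave 6.61%, and at 3 in the lower direction, where all probes gave 5.65%, for 12.3% in both. Since these 10 genes were picked with the contrast known, nothing is read from these counts. A block for the replicate number again gave 3 upward and 3 downward, where 14.8% of all probes passed, 6.74% upward and 8.07% downward. The methods' t-test gave 4 upward and 2 downward, where 1579 and 1219 of the 37005 probes passed. The median difference of the 14 probes was -0.20, with -0.004 over all probes tested. The former was 0.08 without LSC GFP+ replicate 3 and 0.18 without LSC GFP- replicate 1.

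**Figure D3:**
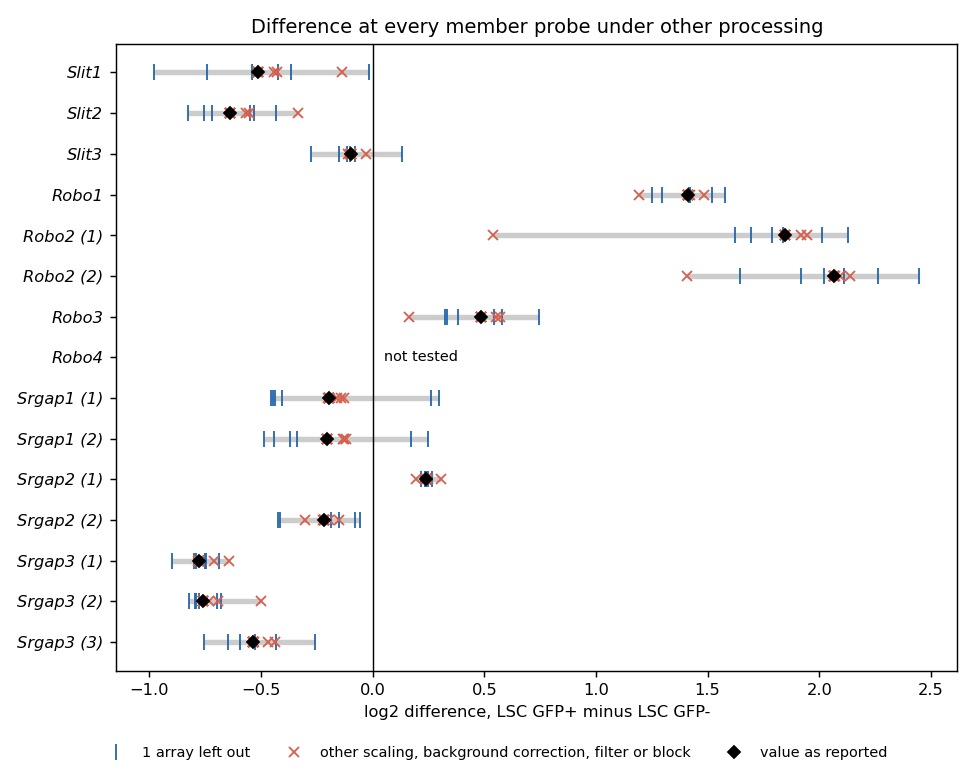
Log2 difference between LSC GFP+ and LSC GFP- cells (x axis) at every probe under each processing tried: black diamonds are the values reported, blue ticks leave out 1 array, and red crosses use another scaling, background correction, filter or block. Robo1 stayed between 1.19 and 1.58, the first Robo2 probe reached down to 0.54 with normexp correction, Slit3 and both Srgap1 probes crossed 0, and Robo4 was not tested.

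Other genes of the pathway were taken from a list of 40 that held extracellular partners and co-receptors, genes of receptor trafficking and processing, and intracellular effectors, and each gene is represented by its brightest probe. Of the 39 that were tested, 2 rose and 1 fell in LSC GFP+ cells at the unadjusted threshold, which 9.12% of all 17290 genes tested passed, 4.3% upward and 4.82% downward. Their median difference was 0.06, with 0.005 over all genes. Ndnf, a secreted neurotrophic factor, did not rise above background on these arrays. The list was put together with earlier results of these data known.

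Ext1, which encodes a polymerase of the heparan sulfate chains that Slit and Robo bind, gave log2 signals of 0.77, 0.57 and 0.52 in LSC GFP+ cells and -0.43, -0.59 and -0.39 in LSC GFP- cells. All LSC GFP+ values were higher, by 1.09 on average (SE 0.19), or 2.13-fold. Its adjusted p in limma, over all probes tested, was 0.109.

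Sdc1, a heparan sulfate proteoglycan of the cell surface that the study itself picked from these samples, gave 2.93, 3.22 and 3.41 against 2.56, 2.46 and 2.61. It was higher in all 3 replicate numbers, by 0.64 (SE 0.20, limma adjusted p = 0.386). Without LSC GFP+ replicate 3 the difference was 0.53 and no longer passed the unadjusted threshold.

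Unc5b, a netrin receptor that also binds Robo4, was the gene of the list that was lower in LSC GFP+ cells. Its log2 signals were 1.004, 1.82 and 1.86 in LSC GFP+ cells and 2.41, 2.86 and 2.69 in LSC GFP- cells. The difference was -1.09 (SE 0.28, limma adjusted p = 0.259). None of these 3 genes passed the adjusted threshold of 0.05, and over the whole array 1 probe did.

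None of the 7 trafficking and processing genes and none of the 21 intracellular effectors, which included Abl1, Abl2, Nck1, Nck2, Sos1, Enah, Rac1 and Cdc42, passed the unadjusted threshold. All 21 effectors were well above background on all 6 arrays. Their median difference was 0.08. Once samples of the same replicate number were paired by a block, 8 of the 39 genes of the whole list passed, 4 upward and 4 downward, where 16.3% of all genes did, 7.6% upward and 8.67% downward.

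**Figure D4:**
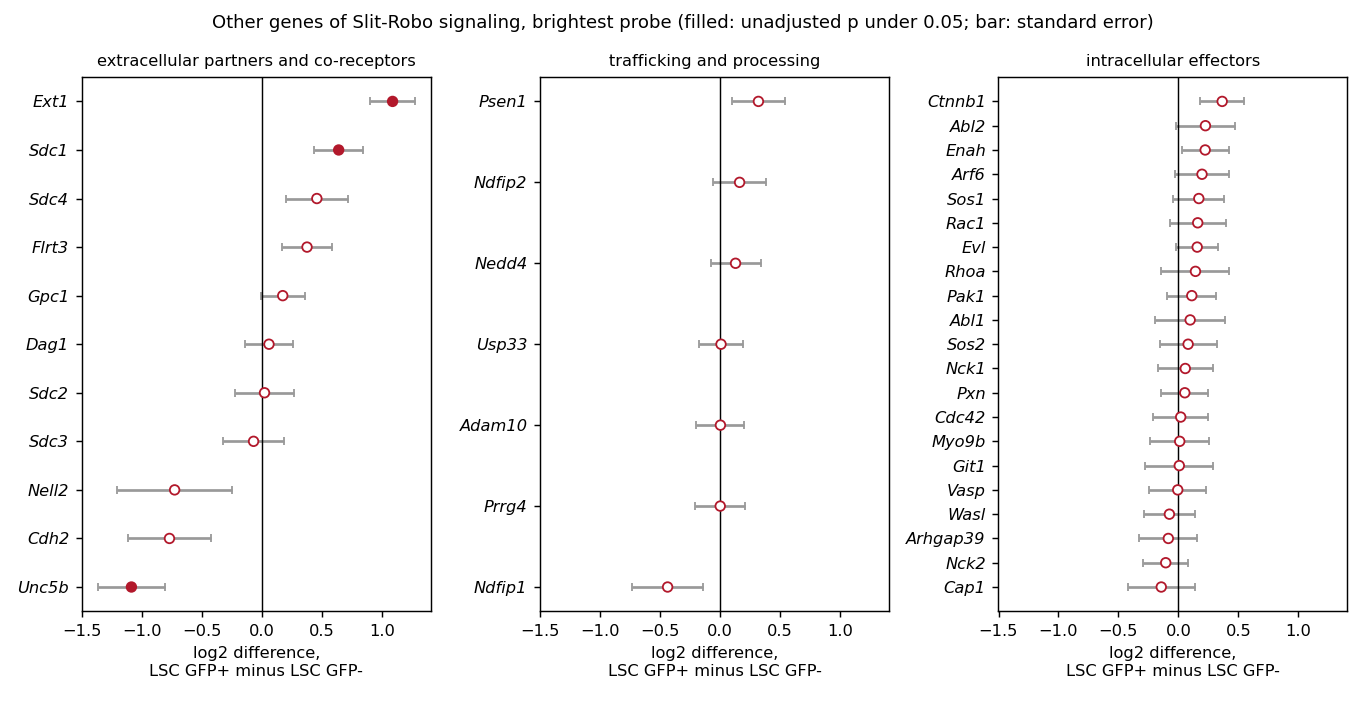
Log2 difference between LSC GFP+ and LSC GFP- cells (x axis) of the 39 tested genes of the pathway list in 3 classes, with the standard error from limma; filled points passed an unadjusted p under 0.05. Ext1 and Sdc1 lie to the right and Unc5b to the left among the extracellular partners, and no point is filled in the other panels.

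The populations also differed in markers of other cell types. Of the 8 basal markers all but Dsg3, which had no array well above background, were well above background on all 6 arrays, as were all 8 luminal markers and the sorting markers Ly6a (Sca-1) and Itga6 (CD49f), and 4 of 7 tested basal markers (Krt5, Krt14, Krt15 and Col17a1) rose in LSC GFP+ cells and 0 fell. Of the 8 smooth muscle and pericyte markers 7 were lower and 0 higher, with a summed linear signal of 6.96 to 10.6 times the 75th percentile of the array in LSC GFP+ cells and 20.7 to 39.5 in LSC GFP- cells. Of the 8 stromal markers 5 were lower and 2, Dcn and Fbln1, higher, with sums of 24.4 to 31.3 and 23.9 to 62.9. In LSC GFP+ cells these sums mostly follow Dcn and Fbln1, so they say little of the other stromal markers. Col1a1, Col1a2, Col3a1, Pdgfra and Lum differed by -2.18, -2.15, -1.97, -2.36 and -1.21, against 1.19 for Dcn and 0.90 for Fbln1. Of the 8 luminal markers 2 were higher and 2 lower, and none of the tested endothelial, leukocyte or neuronal and glial markers passed the unadjusted threshold.

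The stromal and the smooth muscle sums were highest on LSC GFP- replicate 1, at 62.9 and 39.5. Of the 6 arrays, the same one had the highest signal of Slit2, Slit3, both Srgap1 probes and the second Srgap3 probe. The part of stromal and smooth muscle cells, which the Sca-1 and CD49f gates were set to leave out, in those signals was not tested. Without that array the difference was -0.435 for Slit2, no longer counted, 0.13 for Slit3 and 0.30 and 0.25 for the Srgap1 probes. It was 1.52 for Robo1, 2.13 and 2.45 for the Robo2 probes and -0.90, -0.70 and -0.76 for the Srgap3 probes. The smooth muscle sums of LSC GFP- replicates 2 and 3, 20.7 and 24.7, also exceeded the highest LSC GFP+ sum of 10.6, so leaving out 1 array does not remove that difference.

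**Figure D5:**
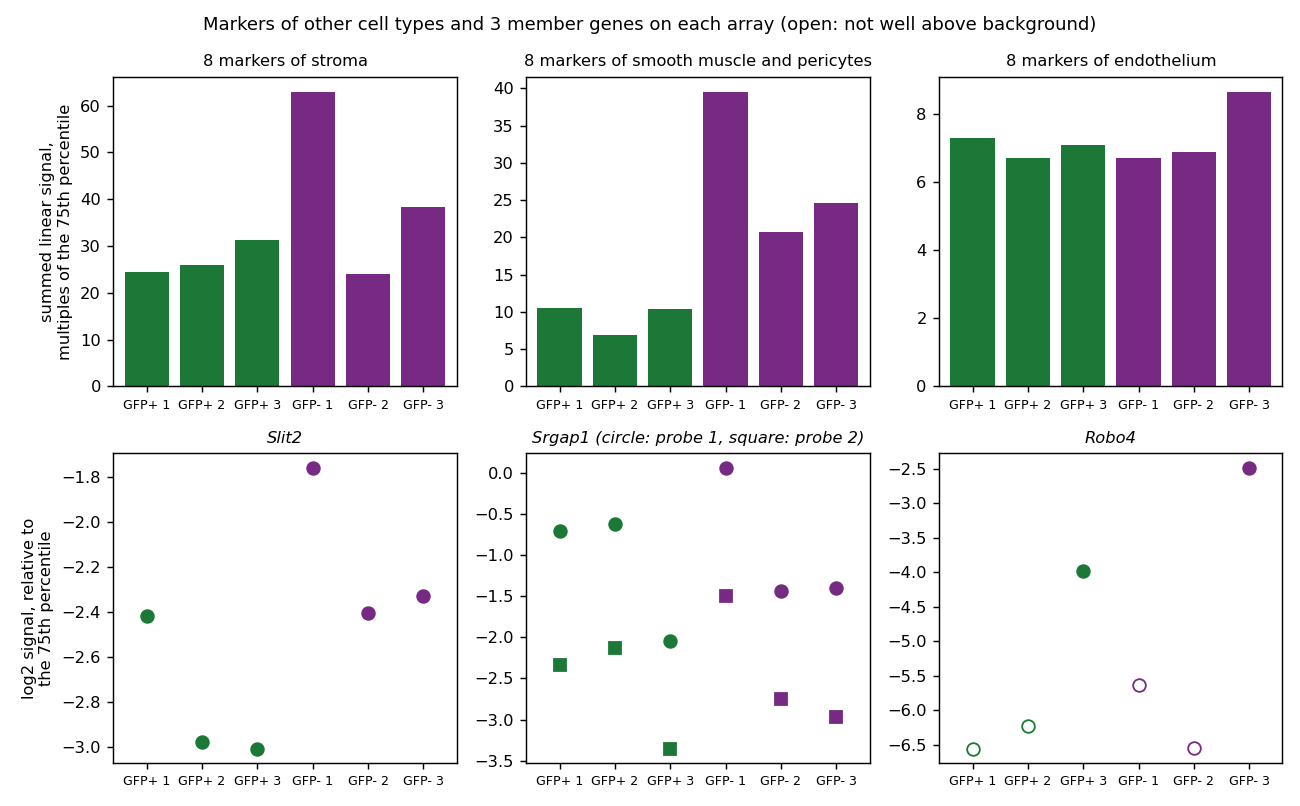
Top row, summed linear signal of 8 markers of stroma, of smooth muscle and pericytes, and of endothelium on each array, in multiples of the 75th percentile of that array; bottom row, log2 signal of Slit2, both Srgap1 probes and Robo4 on the same arrays, LSC GFP+ in green and LSC GFP- in purple, open symbols not well above background. LSC GFP- replicate 1 has the tallest stromal and smooth muscle bars and the highest Slit2 and Srgap1 points, and LSC GFP- replicate 3 has the tallest endothelial bar, at 8.65, and the highest Robo4 point.

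The genes whose pattern over the 6 arrays was most like that of the second Robo2 probe were found by the root mean square difference of mean-centered log2 signals, among 16092 genes well above background on every array. They were Foxa2, a forkhead factor of early prostate buds, at 0.291, then Car12, a carbonic anhydrase, at 0.341, Susd5 at 0.349, Unc5d, a netrin receptor, at 0.358 and Afap1l1 at 0.363. The genes closest to the first Srgap3 probe were Lrp2, the endocytic receptor megalin, at 0.072, Akr1b10, an aldo-keto reductase, at 0.088, Muc1, an apical mucin, at 0.107, Lrrc3 at 0.114 and Cntfr, the receptor subunit for ciliary neurotrophic factor, at 0.128. The measure ranks genes by how alike their values are, with differences between the populations from 1.58 to 2.23 in the first set and from -0.86 to -0.55 in the second.

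All 6 arrays were on 1 slide read in 1 scan, with 36656 to 42128 of 55681 probes well above background and 0 saturated spots, so slide and scan could not be compared with the populations. Which direction held more of the calls over the whole array depended on the scaling. There were 1250 probes higher and 1675 lower, against 1471 and 1299 when arrays were scaled by their median. Robo1, both Robo2 probes and the first and second Srgap3 probes kept their direction and their side of the unadjusted threshold in every setting run for them. Because these genes were chosen with the contrast on the same arrays known, this describes the processing and is no test of the differences. Inpp5d, the gene that encodes SHIP1, had no array well above background at its only probe. Whether this probe reads the transcript made from the s-SHIP promoter was not tested.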

How the data were processed

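RNA of 3 LSC GFP+ and 3 LSC GFP- samples was amplified, labeled with Cy3 and hybridized to single-color arrays. Per the file headers, the deposited intensity values are processed signals on a linear scale, background-subtracted and detrended by Agilent Feature Extraction 11.0.1.1 (the submitters' processing notes give 10.7.3.1), and not normalized between arrays. The table of the whole series deposited by the authors holds the same intensity values rounded.

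Signals were converted here to log2 and centered on the 75th percentile of their array. Spots marked as outliers, 123 to 154 per array, were left out and spots of a probe averaged. Probes that were well above background throughout either population (3 arrays) entered a two-sided moderated test (limma 3.58.1, functions lmFit and eBayes, under R 4.3.3), with Benjamini-Hochberg adjustment. Symbols came from the array design, updated through RefSeq accessions for 26582 probes, and each gene outside the 10 was represented by its brightest probe. The number of arrays limits the precision.

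The 10 genes, the pathway and marker lists and the rule for named genes (every probe of the 10 genes, pathway genes past the threshold, the markers, Inpp5d, and the 5 genes most like the probe with the largest rise and the one with the largest fall) were chosen with earlier results of these data known. Gbe1 and Lipi were added after the values were seen.

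Signals were taken as deviations from the mean of their population and correlated across probes. Samples of the same replicate number deviated together, with correlations of 0.43, 0.28 and 0.67 for replicates 1, 2 and 3. Pairs of different numbers gave -0.55 to 0.22, the highest for LSC GFP+ replicate 1 with LSC GFP- replicate 2. Deviations within a population cancel out, so these correlations depend on each other and cannot settle whether the samples were paired. The numbers, taken from the sample labels, were used as a block in an alternative. The other alternatives were normexp correction with an offset of 50, quantile and median scaling, stricter and looser filters on dim probes, the table of rounded values, an intensity trend, the methods' t-test, averaging a gene's probes, and each array left out in turn. The sequence of the second Robo2 probe is not reported here. Microarray data alone were used, and RT-qPCR, staining and sphere assays were not analysed here.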

Additional observations from a re-analysis of the deposited data

How the results depend on the processing

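Of the 14 tested probes of the 10 genes, Slit3 changed sign in 1 setting and the Srgap1 probes in 2 settings each. Under normexp correction the difference was 0.54 and 1.41 for the Robo2 probes, -0.50 for the second Srgap3 probe and 0.195 for the first Srgap2 probe, which was 0.31 under scaling by the array median. The number of probes at an unadjusted p under 0.05 was 2925, and 5480 with the replicate block that pairs the samples, with 2495 higher and 2985 lower. Leaving out single arrays gave 2077 to 4049. After adjustment 1 probe passed. That count was 0 with normexp correction, with the filter on all 6 arrays, with no filter, with the methods' t-test, with the intensity trend and with the replicate block, it was 3 with quantile and with median scaling, and it ranged from 0 to 3 when single arrays were left out. The pathway genes past the unadjusted threshold numbered 3, and 5 with normexp correction, 5 with the methods' t-test, 8 with the replicate block and 2 to 4 without single arrays. Under the block 3 probes of the 10 genes were higher and 3 lower, as without it. The cause of these changes was not tested. Signals near background limit what can be said of Robo3, Robo4, Slit1 and the first Robo2 probe.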
